A study of Mus musculus with 12 samples.

Results

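The genes described here are 8 transcription factor genes of endoderm and gut epithelium, Cdx1, Cdx2, Gata4, Gata6, Sox17, Creb3l3, Klf4 and Klf5, out of 12393 genes measured on 12 mouse 430A arrays. They were chosen by name, with earlier results of these data known, and all 8 were measured, by 14 probe sets. No filter on low values was applied. Each gene is given by the probe set with the highest mean log2 signal over the 12 arrays, and the second probe set that 6 of the genes have served as a check. The RNA came from bipotential mouse embryonic liver (BMEL) cells, lines able to turn hepatocyte-like or bile-duct-like in culture. The lines 9A1 and 14B3, from dpc14 liver (embryonic day 14) of strain CBA/J x C57Bl/6J, were each kept in basal culture, as aggregates (5 days) and in Matrigel, a gel of basement membrane proteins (10 days). Replicate 1 of the 14B3 line in Matrigel is labelled 5 days instead. Between Matrigel and aggregates, kind of culture and days of culture therefore cannot be told apart. In Matrigel the lines also differ in labelled days, which bears on differences between lines in the response to Matrigel. With 2 arrays for each of the 6 groups, a culture had 4 arrays and a line 6. No transgene, deletion or added compound is named for any group. Each line is a single isolate, so a difference between lines is a difference between these isolates.

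CDX factors are homeobox proteins that set and maintain intestinal identity, GATA4 and GATA6 act from the first endoderm through liver, stomach and small intestine, and SOX17 is an HMG-box factor of early endoderm, bile duct and gall bladder progenitors and endothelium. CREB3L3 (CREBH) is a membrane-bound bZIP factor of liver and small intestine that is released by proteolysis and drives genes of lipid handling and the acute phase. KLF4 and KLF5 are zinc finger proteins that bind GC-rich and CACCC elements; in gut epithelium Klf4 is known from differentiated cells, goblet cells among them, and Klf5 from the dividing cells of the crypt.

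The bases just before the annotated start sites are shown for 3 of the 8 members, Cdx2, Creb3l3 (with 2 starts) and Klf4. All 3 rose in aggregates, but they were not picked for that. They are the members left after matching to the promoter set and a filter on chromosome, so other members may be missing because of that filter. Each is the 250 bases before a start, from RefSeq on GRCm38.p6, written 5′ to 3′ on the gene's own strand, which is the minus strand for all 3. The 2 Creb3l3 starts are numbered by rising chromosome position, so the second lies upstream of the first on the gene's strand. Capitals mark matches to the searched motifs, which are named after the sequences.

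Cdx2, chr5:147307250-147307499: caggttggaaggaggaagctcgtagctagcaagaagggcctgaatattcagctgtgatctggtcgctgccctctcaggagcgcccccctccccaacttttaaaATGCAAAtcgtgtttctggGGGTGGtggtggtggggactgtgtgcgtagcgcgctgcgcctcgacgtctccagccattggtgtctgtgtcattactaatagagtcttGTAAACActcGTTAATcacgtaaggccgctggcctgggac

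Creb3l3, first start, chr10:81092592-81092841: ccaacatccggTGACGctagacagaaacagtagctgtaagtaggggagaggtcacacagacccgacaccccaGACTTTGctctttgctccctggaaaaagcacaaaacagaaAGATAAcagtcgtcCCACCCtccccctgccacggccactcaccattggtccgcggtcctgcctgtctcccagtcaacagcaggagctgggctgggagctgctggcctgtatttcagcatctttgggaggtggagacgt

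Creb3l3, second start, chr10:81098873-81099122: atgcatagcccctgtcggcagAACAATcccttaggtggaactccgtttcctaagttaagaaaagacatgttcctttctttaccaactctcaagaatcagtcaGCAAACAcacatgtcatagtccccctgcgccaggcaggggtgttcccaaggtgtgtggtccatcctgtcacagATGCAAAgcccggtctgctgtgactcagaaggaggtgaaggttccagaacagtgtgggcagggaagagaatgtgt

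Klf4, chr4:55532476-55532725: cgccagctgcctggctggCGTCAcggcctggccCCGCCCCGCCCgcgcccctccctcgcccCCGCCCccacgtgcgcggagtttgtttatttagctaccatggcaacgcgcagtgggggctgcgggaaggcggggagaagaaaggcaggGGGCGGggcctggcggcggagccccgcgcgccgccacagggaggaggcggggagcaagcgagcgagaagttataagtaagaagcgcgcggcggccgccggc

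These windows were searched on both strands for 10 short motifs: AGATAA for GATA factors, TTTATG for CDX factors, CAAAGTC for HNF4A, GTTAAT for HNF1 factors, TGTTTNC for FOXA factors, AACAAT for SOX factors, GGGCGG as the GC box, CCACCC as the CACCC box, TGACG as the core of the cAMP response element (CRE) and ATGCAAA as the octamer. The Klf4 window was the most GC-rich, with 74.0% G and C against a median of 52.4% over 32536 RefSeq promoter windows, and held a reverse CRE core and 4 GC boxes, of which the pair at 217 to 212 and 212 to 207 bases before the start share a base. GC boxes occur in 33.0% of all windows. The Cdx2 window (55.2% G and C) held an octamer at 147 to 141 bases before the start, a reverse CACCC box at 128 to 123, a reverse FOXA match at 40 to 34 and an HNF1 match at 30 to 25. Octamers occur in 4.15% of all windows, CACCC boxes in 28.1%, FOXA matches in 17.8% and HNF1 matches in 6.47%. The first Creb3l3 window (56.8% G and C) held a CRE core, a reverse HNF4A match at 178 to 172 bases before the start, a GATA match at 138 to 133 and a CACCC box; HNF4A matches occur in 3.87% of all windows, GATA matches in 9.97% and CRE cores in 17.9%. The second Creb3l3 window (50.8% G and C) held a SOX match (9.35% of all windows), a reverse FOXA match and an octamer. The CDX letters, found in 10.8% of all windows, were in none of the 4. A match describes the letters and is not a measured binding site.

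Across cultures the members fell into 3 patterns. Averaged over the lines, Creb3l3, Gata4, Gata6 and Klf4 were higher in aggregates and in Matrigel than in basal culture. In 9A1 the log2 difference in Matrigel was not called for Gata6 (0.34, adjusted p 0.0914) or Klf4 (0.29, adjusted p 0.360). Cdx2 and Klf5 were higher in aggregates, averaged over the lines, with no call in Matrigel. Sox17 differed between the lines in every culture and was higher in Matrigel in 14B3. Cdx1 stayed at a low signal throughout. Values below are log2 signal, in which 1 unit is a 2-fold difference, and a gene is called where its Benjamini-Hochberg adjusted p from limma over 12393 genes is at most 0.05. Differences are log2 ± SE, and means are ± SD over arrays. In bulk RNA, fewer cells with a transcript and less transcript per cell cannot be told apart. RMA gives no detection call, so 30 measured genes of kidney, lung, pancreas, eye, testis and nervous tissue served as a loose guide to background. The 26 of them with no call in any comparison lay between 4.19 and 9.29 over the arrays, with a median of 7.13. The upper quartile of their means was 7.96, and the array medians over all genes were 8.38 to 8.46. The full range thus takes in the median gene, and a value inside it need not be background. Background can make a fold too small where 1 of the cultures lies in that range.

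**Figure D1:**
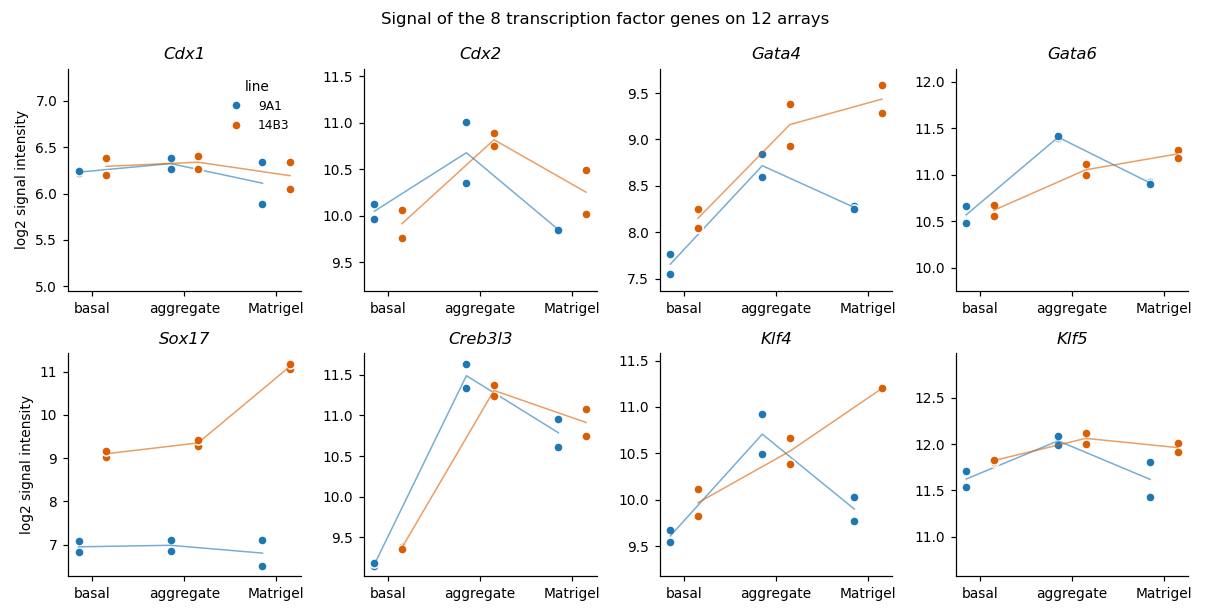
Log2 signal (vertical axes, whose ranges differ between panels) of each of the 8 genes on each of the 12 arrays, by culture (horizontal axis) and line (colours). Points are arrays, and lines join the group means of 2 arrays. Creb3l3 was higher on all aggregate and Matrigel arrays than on any basal array, and all 6 Sox17 values in 14B3 lay above all 6 in 9A1.

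Of the CDX genes, Cdx2 (Entrez Gene 12591) was higher in aggregates and Cdx1 (Entrez Gene 12590) was not. Cdx2 in basal culture was 9.97 and 10.13 in 9A1 and 9.76 and 10.07 in 14B3, and in aggregates it was 10.35 and 11.01 in 9A1 and 10.89 and 10.75 in 14B3. All 4 aggregate arrays lay above all 4 basal arrays. In Matrigel Cdx2 was 9.86 and 9.84 in 9A1 and 10.49 and 10.01 in 14B3, and 3 of these 4 arrays lay within the basal range. The means were 9.98 ± 0.16 in basal culture, 10.75 ± 0.29 in aggregates and 10.05 ± 0.30 in Matrigel (SD, n = 4). Cdx2 rose by 0.77 ± 0.15 in aggregates, 1.70-fold, with an adjusted p of 0.00134, and was lower in Matrigel than in aggregates by -0.70 ± 0.15 (adjusted p 0.00590). Matrigel and basal culture differed by 0.07 ± 0.15, with a 95% interval of -0.27 to 0.41. In the order of the 6 group means every neighbouring pair overlapped, with Matrigel 9A1 lowest and aggregate 14B3 highest.

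Cdx1, the other intestinal CDX gene, ran from 5.88 to 6.41 over the 12 arrays, with means of 6.26 ± 0.09 in basal culture, 6.33 ± 0.08 in aggregates and 6.15 ± 0.22 in Matrigel (SD, n = 4). These values lie inside the range of the tissue-restricted guide genes. Aggregates differed from basal culture by 0.07 ± 0.12 (adjusted p 0.661), and with quantile normalization the sign turned, at -0.04. No difference was detectable at this signal, which does not show that Cdx1 was absent. Over the 12 arrays Cdx1 and Cdx2 had a Pearson r of 0.25.

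Gata4 and Gata6 were both higher outside basal culture. Gata4 (Entrez Gene 14463) was 7.55 and 7.77 in basal 9A1 and 8.26 and 8.04 in basal 14B3. In aggregates it was 8.84 and 8.59 in 9A1 and 9.39 and 8.93 in 14B3, all above the basal arrays. In Matrigel it was 8.28 and 8.25 in 9A1 and 9.58 and 9.29 in 14B3, and 1 Matrigel 9A1 array lay just below the highest basal array. Gata4 rose by 1.04 ± 0.13 in aggregates, 2.05-fold (adjusted p 2.90e-05), and by 0.95 ± 0.13 in Matrigel (adjusted p 0.000175), while Matrigel and aggregates differed by -0.09 (adjusted p 0.607). It was also higher in 14B3 than in 9A1, by 0.70 ± 0.10 averaged over cultures (adjusted p 0.00164). Its lowest group was basal 9A1 and its highest Matrigel 14B3; basal 14B3 overlapped Matrigel 9A1, and aggregate 14B3 overlapped Matrigel 14B3. All 9A1 signals and the basal 14B3 signals lie inside the range of the guide genes. The lower array of aggregate 14B3 and the lower array of Matrigel 14B3 do so as well.

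Gata6 (Entrez Gene 14465), the paralog that opens extraembryonic endoderm development, was 10.48 and 10.66 in basal 9A1 and 10.56 and 10.68 in basal 14B3. In aggregates it was 11.40 and 11.41 in 9A1 and 11.11 and 10.995 in 14B3, and in Matrigel 10.92 and 10.90 in 9A1 and 11.27 and 11.18 in 14B3. All 8 of these arrays lay above all 4 basal arrays. Gata6 rose by 0.64 ± 0.09 in aggregates, 1.55-fold (adjusted p 8.69e-05), and by 0.48 ± 0.09 in Matrigel (adjusted p 0.00183). Its 9A1 arrays were highest in aggregates and its 14B3 arrays in Matrigel: in 9A1 alone Matrigel was lower than aggregates by -0.49 (adjusted p 0.0209), in 14B3 the difference was 0.17 (adjusted p 0.427), and the difference between these, 0.66, had an adjusted p of 0.256. With 14B3 fitted on its own arrays, the rise in aggregates was 0.44 with an adjusted p of 0.0577. Averaged over cultures the lines differed by 0.00 for Gata6 (adjusted p 0.990), against 0.70 for Gata4. In the order of group means only the basal groups overlapped, and aggregate 9A1 was highest. Over the 12 arrays Gata4 and Gata6 had an r of 0.77.

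Sox17 (Entrez Gene 20671) separated the lines in every culture. In 9A1 it was 6.83 and 7.07 in basal culture, 6.87 and 7.11 in aggregates and 6.51 and 7.10 in Matrigel. In 14B3 it was 9.03 and 9.17 in basal culture, 9.29 and 9.41 in aggregates and 11.06 and 11.19 in Matrigel. The 9A1 values lie inside the range of the guide genes and overlapped between cultures. Both basal 14B3 values and the lower aggregate 14B3 value also lie inside that range, near its upper end. Every 14B3 array lay above every 9A1 array. The lines differed by 2.94 ± 0.11 averaged over cultures, 7.70-fold (adjusted p 2.04e-08). By culture the difference was 2.15 in basal culture (adjusted p 0.000114), 2.37 in aggregates (adjusted p 3.62e-05) and 4.32 in Matrigel, 19.9-fold (adjusted p 3.59e-07); with 9A1 near background these folds may be too small.

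The change of Sox17 in Matrigel differed between the lines. In 14B3 it rose by 2.02 ± 0.19 from basal culture, 4.06-fold (adjusted p 2.35e-05), and in 9A1 the difference was -0.15 ± 0.19 (adjusted p 0.773). The difference between these responses, 2.17 ± 0.27, had an adjusted p of 0.00380. The rise averaged over both lines, 0.94 ± 0.13 (adjusted p 0.000264), therefore describes neither line. In aggregates Sox17 differed from basal culture by 0.14 ± 0.13 (adjusted p 0.411). Both 14B3 Matrigel arrays were high, with replicate 1 labelled 5 days and replicate 2 labelled 10 days. The part of days of culture was not tested.

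**Figure D2:**
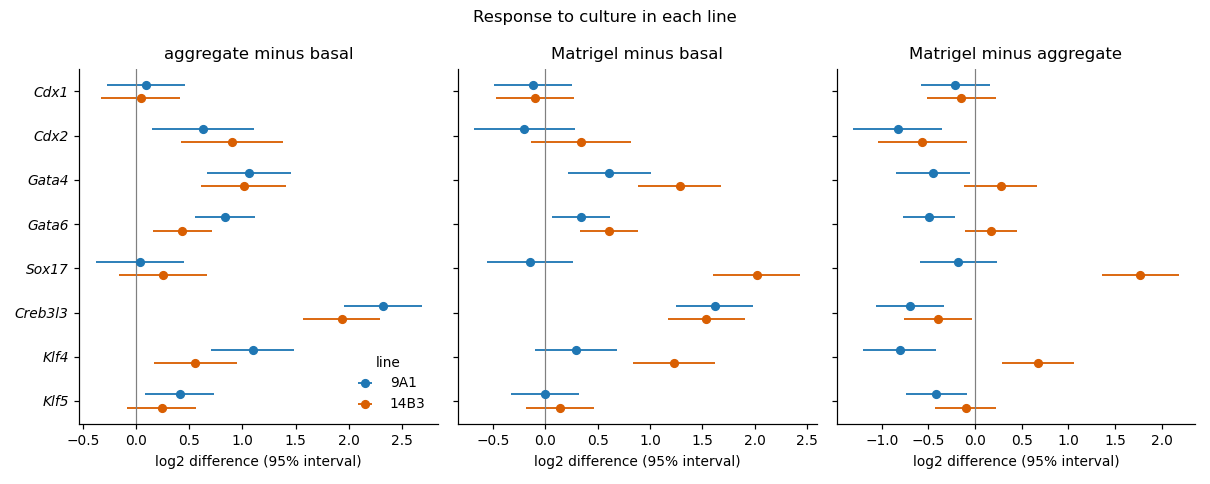
Log2 difference (horizontal axis) of each of the 8 genes (rows) in aggregates against basal culture, Matrigel against basal culture and Matrigel against aggregates (panels). The lines 9A1 and 14B3 are shown separately (colours). Points are limma estimates from 2 against 2 arrays and bars their 95% intervals. Against basal culture, Sox17 in Matrigel was at 2.02 in 14B3 and at -0.15 in 9A1, and Klf4 in Matrigel at 1.23 and 0.29.

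SOX17 is also an endothelial factor, so markers of that cell type were read beside it. Of 12 measured endothelial markers, 2 were higher in 14B3 than in 9A1, Cdh5 (VE-cadherin) by 0.64 ± 0.13 (adjusted p 0.0138) and Vwf by 0.39. The Matrigel 14B3 arrays had Cdh5 at 8.67 ± 0.28 and Matrigel 9A1 at 7.12 ± 0.15 (SD, n = 2). Their summed linear signal ran from 1981 to 2638 in Matrigel 9A1 and from 2307 to 2988 in Matrigel 14B3, from 2125 to 2305 and 2341 to 2625 in basal 9A1 and 14B3, and from 2502 to 2689 and 2481 to 2878 in aggregates. Pecam1, Tie1 and Tek had group means of 6.29 to 6.47, 5.46 to 5.71 and 5.61 to 5.83, inside the guide range. None of them was called between lines. The arrays of Cdh5, at 7.02 to 8.87, and of Vwf, at 5.27 to 6.47, lie inside that range as well. Averaged over lines, Cdh5 was called higher in Matrigel than in basal culture (adjusted p 0.0375), the only one of the 12 called there. The part of endothelial cells in the Sox17 values was not tested.

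Creb3l3 (Entrez Gene 208677) changed most of the 8 between cultures. It was 9.15 and 9.19 in basal 9A1 and 9.39 and 9.36 in basal 14B3. In aggregates it was 11.64 and 11.34 in 9A1 and 11.38 and 11.24 in 14B3, and in Matrigel 10.61 and 10.96 in 9A1 and 10.75 and 11.08 in 14B3. The 3 cultures did not overlap, with aggregates highest and Matrigel between. The basal 9A1 values lie inside the range of the guide genes, near its upper end, so the rises in 9A1 may be too small. The means were 9.27 ± 0.12, 11.40 ± 0.17 and 10.85 ± 0.21 (SD, n = 4) in basal culture, aggregates and Matrigel. Of the neighbouring group means, those of the lines overlapped in Matrigel and in aggregates but not in basal culture. Creb3l3 rose by 2.13 ± 0.12 in aggregates, 4.37-fold (adjusted p 3.88e-08), and by 1.58 ± 0.12 in Matrigel, 2.99-fold (adjusted p 1.72e-06), and it was lower in Matrigel than in aggregates by -0.55 ± 0.12 (adjusted p 0.00497). The rise in aggregates was 2.32 in 9A1 and 1.93 in 14B3, that in Matrigel 1.62 and 1.54, and neither difference between lines was called. The lower value in Matrigel than in aggregates was called in 9A1 (-0.70, adjusted p 0.0140) and not in 14B3 (-0.39, adjusted p 0.161), and that difference between lines, 0.31, was not called either.

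Klf4 (Entrez Gene 16600) was 9.68 and 9.54 in basal 9A1 and 9.82 and 10.11 in basal 14B3. In aggregates it was 10.49 and 10.92 in 9A1 and 10.66 and 10.38 in 14B3, and in Matrigel 10.03 and 9.77 in 9A1 and 11.19 and 11.21 in 14B3. All aggregate arrays lay above all basal arrays; the 9A1 Matrigel arrays lay within the basal range and the 14B3 Matrigel arrays above every other array. In the order of group means, Matrigel 9A1 overlapped basal 14B3 and the aggregate groups overlapped each other. Klf4 rose by 0.83 ± 0.13 in aggregates, 1.77-fold (adjusted p 0.000165), and by 0.76 ± 0.13 in Matrigel averaged over lines (adjusted p 0.000778), of which 1.23 in 14B3 (adjusted p 0.000619) and 0.29 in 9A1 (adjusted p 0.360). From aggregates to Matrigel it was lower in 9A1, by -0.81 (adjusted p 0.00954), and higher in 14B3, by 0.68 (adjusted p 0.0278). The difference between these, 1.48 ± 0.25, had an adjusted p of 0.0323; this contrast was added after the values were seen. Leaving out 1 array at a time put that p between 0.0173 and 0.143, above 0.05 for 6 of the 12 arrays. For Matrigel against basal culture the difference between lines was 0.94 ± 0.25 (adjusted p 0.175). Averaged over cultures Klf4 was higher in 14B3 by 0.49 ± 0.10 (adjusted p 0.0149), which was 0.0553 without replicate 2 of basal 14B3.

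Klf5 (Entrez Gene 12224) moved least of the members called in aggregates. It was 11.71 and 11.54 in basal 9A1, 11.81 and 11.83 in basal 14B3, 12.08 and 11.99 in aggregate 9A1, 12.00 and 12.12 in aggregate 14B3, 11.81 and 11.43 in Matrigel 9A1 and 12.01 and 11.91 in Matrigel 14B3. The 4 aggregate arrays lay above the 4 basal arrays, and the Matrigel arrays overlapped both. The lowest groups, Matrigel 9A1 and basal 9A1, overlapped, as did the 3 highest, Matrigel 14B3 and the aggregates. The rise in aggregates was 0.33 ± 0.11, 1.25-fold (adjusted p 0.0233). It passed the threshold in 7 of the 12 fits without 1 array and not with quantile normalization (0.19, adjusted p 0.110). Klf5 was lower in Matrigel than in aggregates by -0.26 ± 0.11 (adjusted p 0.0904), and with a separate replicate block in each line this p was 0.0394. Over the 12 arrays Klf4 and Klf5 had an r of 0.72.

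The counts of members called are read against all genes. In aggregates against basal culture 46.3% of the 12393 genes were called, 22.9% higher and 23.4% lower, and of the 8 members 6 were higher and 0 lower, with a median difference of 0.70 against 0.10 over all genes; by limma 0 members were lower at an unadjusted p under 0.05 either, as was so in Matrigel and between lines. In Matrigel against basal culture 28.4% were called, 14.1% higher, and 5 members were higher (Creb3l3, Gata4, Sox17, Klf4 and Gata6) and 0 lower, with a median of 0.62 against -0.04. In Matrigel against aggregates 26.7% were called, 13.9% higher and 12.7% lower; Sox17 was higher and Cdx2 and Creb3l3 were lower. Of all genes called there, 52.3% were higher, and 41.5% with each array centred on its median. The median over all genes in that contrast was -0.10.

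Between lines 6.01% of all genes were called, 2.57% higher in 14B3 and 3.45% lower, and 3 members were higher in 14B3 (Sox17, Gata4 and Klf4) and 0 lower. With a separate replicate block in each line 1119 genes were called in place of 745, and the same 3 members. The response to aggregates differed between lines for 0.468% of genes (58 genes) and for 0 of the 8 members by limma, with the lowest adjusted p at 0.733, for Gata6, and 1 member at an unadjusted p under 0.05. The response to Matrigel differed for 0.686% of genes (85 genes), 0.339% with the larger change in 14B3, and of the members for Sox17 alone, and the difference between lines in Matrigel against aggregates was called for 0.42% (52 genes), 0.194% with the larger value in 14B3, and of the members for Sox17 and Klf4. With the block these counts of genes were 118, 165 and 96, with no other member called.

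Within single lines the counts were uneven. From basal culture to aggregates 36.9% of genes were called in 9A1 and 33.2% in 14B3, with 6 and 5 members higher (Klf5 was not called in 14B3). From basal culture to Matrigel 17.8% and 16.5% of genes were called, and 2 members in 9A1 (Creb3l3 and Gata4) against 5 in 14B3. From aggregates to Matrigel 15.6% and 13% of genes were called; in 9A1 4 members were lower (Cdx2, Creb3l3, Gata6 and Klf4) and in 14B3 2 were higher (Klf4 and Sox17). Of these members the difference between lines itself was called for Sox17 and Klf4 only, over the contrasts given above. Between lines, 1.9% of genes were called in basal culture, 1.53% in aggregates and 3.77% in Matrigel, and the members called were Sox17 alone, Sox17 alone, and Gata4, Klf4 and Sox17.

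The second probe set of a gene reads another stretch of its transcripts and was fitted with all probe sets. Over the 12 arrays the pair had an r of 0.92 for Cdx2, 0.97 for Gata4, 0.92 for Gata6, 0.99 for Sox17, 0.93 for Klf4 and 0.58 for Klf5. The second Sox17 probe set (of the _x_at type, a kind that can pick up related sequences) ran from 5.44 to 5.77 in 9A1 and from 8.98 to 11.53 in 14B3. It gave a difference between lines of 4.56 against 2.94, and of 2.31 in the response to Matrigel (adjusted p 0.00843 over all probe sets). The second Klf4 probe set gave a difference between lines of 1.51 in the response to Matrigel with an adjusted p of 0.0172, where the first gave 0.94 and was not called. For Klf5 the second probe set was lower in Matrigel than in aggregates by -0.36 with an adjusted p of 0.0221.

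**Figure D3:**
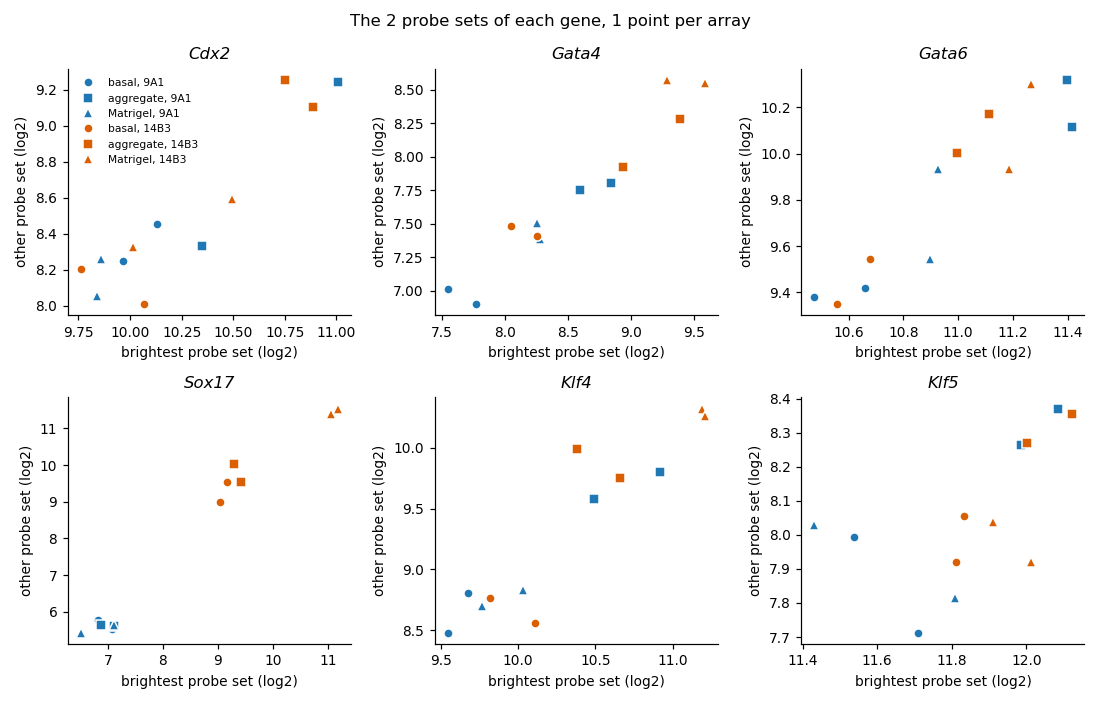
Log2 signal of the second probe set (vertical axes) against the first (horizontal axes) on the 12 arrays for the 6 genes with 2 probe sets; points are arrays, coloured by line and shaped by culture. The Sox17 arrays of 14B3 lie apart from those of 9A1 on both probe sets, and Klf5 has the loosest relation, with an r of 0.58.

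For each member the 3 genes with the most similar log2 values were found by Pearson r over the 12 arrays, a description in which shared culture groups raise every r. Creb3l3 was followed most closely, by Efna1, Etfrf1 and Erbb3, each with an r of 0.99. Gata6 was nearest to Bcl11b (0.98), Pgap6 and Slc39a4 (both 0.97), and Gata4 to Ihh, Cpn1 and Itprid2 (each 0.96). Ihh rose by 2.19 in aggregates and by 2.12 in Matrigel and was higher in 14B3 by 1.16. Sox17 was nearest to Aspa (0.97), Aqp8 and Cldn34c1 (both 0.94); Aspa was higher in 14B3 by 2.41 and Aqp8 by 1.62.

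Klf4 was nearest to Etv3 (0.95), 2210016L21Rik and Clca1 (both 0.92). Clca1, a secreted protein of goblet cells, was lower in Matrigel than in aggregates in 9A1 (-1.47) and higher in 14B3 (1.64), a difference between lines of 3.11 (adjusted p 0.00588). Its group means were 5.47 ± 0.35 in Matrigel 9A1 and 7.87 ± 0.10 in Matrigel 14B3 (SD, n = 2), both inside the guide range. Tff3, another goblet cell gene, went the other way between lines: it was lower in 14B3 by -1.05 (adjusted p 0.00247), and its response to Matrigel against basal culture was smaller there by -2.31 (adjusted p 0.0246). Cdx2 was nearest to Ociad1 (0.95), Zfp958 and Mif4gd (both 0.91), Klf5 to Ndufs3, Atp5a1 and Vps26a (each 0.89), and Cdx1, at its low signal, to Ocstamp (0.97), Hoxb5 and Arhgap31 (both 0.96). Among the members the closest pair was Gata6 and Creb3l3, with an r of 0.90, followed by Gata4 and Klf4 with 0.88.

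Of the members' own families, 29 other genes were measured, of which aggregates had 4 above and 6 below basal culture, with a median of 0.12. Creb3l2, another membrane-bound bZIP gene, rose by 0.94 ± 0.12 (adjusted p 2.89e-05). The log2 change was -2.32 for Sox11, -2.09 for Sox4 and -1.48 for Klf7. In Matrigel 3 of the 29 were higher than in basal culture and 2 lower. Gata5 was lower in 14B3 by -0.92 (adjusted p 0.000689), where Gata4 was higher. The group means of Gata5, 7.59 to 8.90, lie inside the guide range, as do the culture means of Sox11 and Klf7.

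Other factors of endoderm and gut were called in both directions. Of 28 measured, 9 were higher and 3 lower in aggregates, with a median of 0.16. Hnf4g, the HNF4 paralog of intestine, rose by 3.39 ± 0.16 (adjusted p 8.08e-09), the epithelial ETS factor Elf3 by 2.06 and the nuclear receptor gene Nr5a2 by 1.63. The pioneer factor genes Foxa1 and Foxa2 were lower, by -1.78 and -1.51, and so was the GATA cofactor gene Zfpm2, by -0.54. In Matrigel 6 were higher and 2 lower than in basal culture.

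Most of the gut genes listed as linked to CDX or GATA factors rose in aggregates and in Matrigel. The list also holds the goblet cell gene Tff3 and the bile duct marker Cftr. Of 26 measured, 20 were higher, 0 lower and 6 not called in aggregates, with a median of 1.82. In Matrigel 18 were higher, 0 lower and 8 not called, with a median of 1.15. By limma 0 were lower in either at an unadjusted p under 0.05. Fabp2, the intestinal fatty acid binding protein, was higher by 7.13 in aggregates, Apoa4 by 5.23 and Tm4sf5 by 5.19. Their basal means, 6.56, 8.05 and 7.89, lie inside the guide range. So do those of Hnf4g (7.13), Nr5a2 (7.35), Apoc2 (7.65), Bdh1 (6.37), Cubn (8.48), Ttr (9.02), Apoa1 (9.06), Creb3l2 (9.09) and Ihh (7.73). In aggregates the lowered genes Foxa1, Zfpm2, Lamb1, Plat, Foxq1, Birc5, Ccnd1 and Myc had means inside it. These differences may therefore be too small. From aggregates to Matrigel 13 of the 26 were lower and 1, Tff3, was higher. Between lines 1 was higher in 14B3 and 8 were lower.

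**Figure D4:**
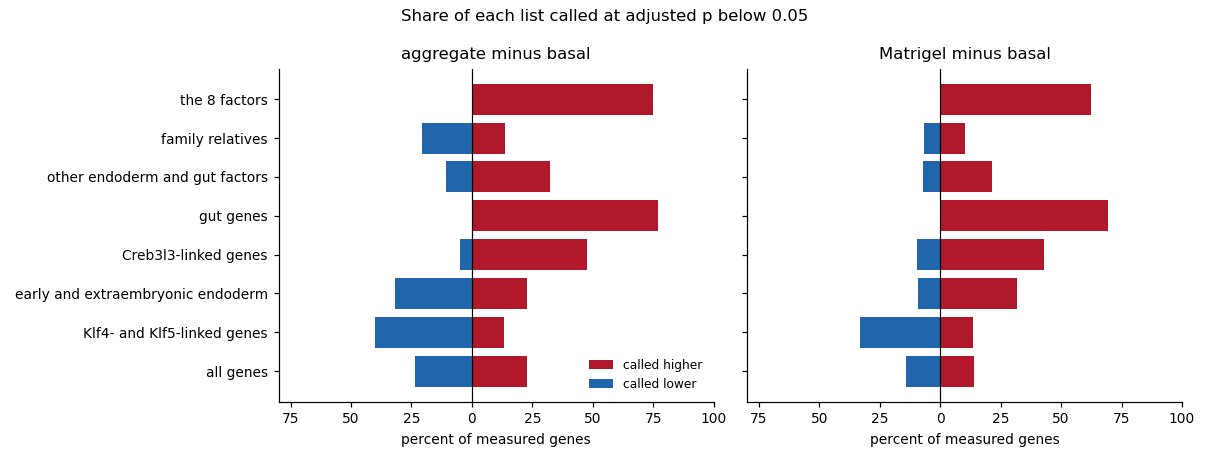
Percent of measured genes (horizontal axis) called higher and lower in aggregates and in Matrigel against basal culture, for each list of genes and for all genes (rows). The gut genes linked to CDX and GATA factors had 20 of 26 higher in aggregates and 18 of 26 in Matrigel, with 0 lower in either, where 46.3% and 28.4% of all genes were called in either direction.

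Of 21 measured genes linked to Creb3l3, 10 were higher and 1 lower in aggregates, with a median of 0.29, and 9 were higher and 2 lower in Matrigel. Apoc2, an activator of lipoprotein lipase, was higher by 6.01 in aggregates, Apoa4 by 5.23 and the ketone body enzyme gene Bdh1 by 4.80, while the desaturase gene Fads1 was lower, at -1.74. Of 22 genes of early and extraembryonic endoderm, 5 were higher and 7 lower in aggregates, and 7 were higher and 2 lower in Matrigel. Apoa1, Ttr and Cubn, which hepatocytes or absorptive epithelia also express, were higher in aggregates by 5.37, 4.15 and 3.10. The laminin gene Lamb1, Plat and Foxq1 were lower, by -3.09, -1.44 and -1.18. Dab2, an endocytic adaptor of that list, was higher in 14B3 by 0.80 ± 0.15 (adjusted p 0.00705), and its response to Matrigel differed between lines by 1.94 ± 0.36 (adjusted p 0.0340). The other calls of that list between lines were mixed: Lefty1 was higher in 14B3 and Thbd, Amn and Plat were lower, and the response to Matrigel was smaller in 14B3 for Afp (-3.52) and Amn (-1.45). Of 15 genes linked to Klf4 or Klf5, 2 were higher and 6 lower in aggregates: Egr1 rose by 1.23 and Cdh1 by 0.54, and the proliferation genes Birc5, Ccnd1 and Myc were lower by -4.04, -3.37 and -2.26.

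The cells were checked against markers of their labelled kind and of other tissues. Of the bile duct markers, Krt19 was at 13.59 ± 0.23, 13.32 ± 0.18 and 13.56 ± 0.09 (SD, n = 4) in basal culture, aggregates and Matrigel, above the guide range, and Krt7 at 12.04, 9.75 and 11.23. Sox9 lay inside the guide range in each culture (7.49, 7.02 and 7.33), as did Epcam (7.67), Cftr (5.36) and Aqp1 (7.18) in basal culture, so their presence there is not shown. Of 10 bile duct markers measured, 3 were higher and 4 lower in aggregates. Alb, the defining hepatocyte gene, was at 8.08 ± 0.31 in basal culture, inside the guide range, and at 12.45 ± 1.15 in aggregates and 12.54 ± 0.10 in Matrigel (SD, n = 4). Of 15 hepatocyte markers 12 were higher in aggregates, and their summed linear signal ran from 5943 to 9061 in basal culture, from 48182 to 77013 in aggregates and from 38561 to 48279 in Matrigel, so hepatocyte genes rose in the cultures in which the members rose. Of 13 intestinal secretory markers 4 were higher and 1 lower in aggregates, and of 9 stomach markers 4 were higher. Their summed signals ran from 2284 to 2652 and from 3885 to 4578 in basal culture, from 3260 to 5007 and from 4532 to 6910 in aggregates, and from 2935 to 6123 and from 6813 to 13896 in Matrigel.

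GATA4 and GATA6 also act in heart, and 14 cardiac markers were read beside them: 2 (Tnni3 and Mef2c) were higher and 1, Tnnt2, was lower in aggregates, and Tnnt2 alone was called in Matrigel against basal culture. Their summed signal ran from 3169 to 3817 in basal culture, from 2061 to 2505 in aggregates and from 1815 to 2615 in Matrigel. The fall of the sum lay in Tnnt2, at 10.65, 6.03 and 7.74 by culture; without it, a choice made after its values were seen, the other 13 markers summed to 1837 to 2025, 2002 to 2432 and 1614 to 2133. Of 10 haematopoietic markers 2 were higher in aggregates, Csf1r by 1.48 (adjusted p 2.64e-07) and Ptprc, the pan-leukocyte gene, by 0.41 (adjusted p 0.0352). Csf1r had means of 9.355, 10.84 and 9.95 in basal culture, aggregates and Matrigel, above the guide range. It was lower in 14B3 by -1.13 (adjusted p 8.49e-06). Ptprc was at 5.59 to 6.01 by culture, inside that range. The haematopoietic sums were 2098 to 2429, 2555 to 5199 and 2155 to 3270 in basal culture, aggregates and Matrigel. In aggregates they were 5066 to 5199 in 9A1 and 2555 to 2880 in 14B3. Of 12 stromal markers 1 was higher in aggregates, with sums of 1943 to 2149, 1967 to 2398 and 1874 to 4523 in basal culture, aggregates and Matrigel. In Matrigel 3 stromal markers were higher than in basal culture, Acta2, Col3a1 and Col1a1, and the high sums were those of 9A1, at 3427 to 4523 against 1874 to 2151 in 14B3. The response of Acta2 to Matrigel was smaller in 14B3 by -1.90 against basal culture (adjusted p 0.00656) and by -1.99 against aggregates (adjusted p 0.00834), the contrasts in which Sox17, and in the second Klf4, had the larger value in 14B3. Of the 12 endothelial markers 2 were higher in aggregates. The part of other cell types in the members' values was not tested.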

How the data were processed

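The assay was total RNA hybridised to 12 one-colour Affymetrix mouse 430A arrays, 2 for each of 6 groups. What the authors deposited is an intensity for each probe set, the RMA signal, computed in R 2.3.1 per the submitters' processing notes. The signals span 14.4 to 27318, with array medians of 268 to 281, and so are linear; RMA itself works in log2, and log2 was taken here before every step. Precision is limited by the number of arrays. The design text calls the arrays of a group biological duplicates without saying how their cultures were separated, so the p-values reflect the spread between these arrays only, which may be technical.

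Of 22690 probe sets, 20380 carried 1 symbol in GEO's platform annotation, which can be old, 691 several, 1555 had none and 64 were controls, and only those with 1 symbol were used. Of the 20380, 20351 were matched to RefSeq by gene ID. Each gene was given by the probe set with the highest mean, which left 12393 genes, 4956 of them with more than 1 probe set.

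Fits of the log2 values used limma 3.58.1 in R 4.3.3 (lmFit, eBayes) with a mean for each group; 6 residual degrees of freedom remained, and the residual SD had a median of 0.170. Tests were two-sided and p-values adjusted by Benjamini-Hochberg over all genes. The fit was tested on simulated data. Contrasts between cultures average the lines, and those between lines average the cultures; values for 1 line or culture come from the same fit unless said otherwise. The members, gene lists and tests were chosen with earlier results of these data known, so their counts are not independent evidence of a direction. The difference between lines in Matrigel against aggregates was added after the values of the members were seen.

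Named genes are the 8 members, up to 3 called genes per list and direction with the largest change in aggregates and the same sign in both lines, family relatives called with a change of at least 1, and the 3 genes most like each member. Gata5, Dab2 and the other genes of its list called between lines, Tff3, Acta2, Tnnt2, the values of Clca1 by line, the endothelial genes and the defining markers of other tissues were named after their values were seen.

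Replicate numbers were checked for pairing: for each group the gene-wise difference of replicate 2 from replicate 1 was taken. Over the 15 pairs of groups these differences had an r of 0.10 to 0.64, all above the 0.1 required, the lowest only just. The highest were between the lines in the same culture, 0.64 in Matrigel and 0.57 in basal culture. The lowest was between basal and aggregate 9A1. Pairing within a line is therefore not established. The main fit has no block, and a fit with a separate replicate block in each line is given where it changes a call. Other alternatives were leaving out each array, other scalings, other choices of probe set, genes above the median level, log2(value + 64), array weights, an additive fit and each line alone. Promoter sequences are RefSeq's on GRCm38.p6. Plots come from matplotlib 3.10.9 in Python 3.11.15.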

Additional observations from a re-analysis of the deposited data

Results flagged for a closer look

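The response of Sox17 to Matrigel against basal culture differed between 14B3 and 9A1 by 2.17 on the log2 scale (limma adjusted p 0.00380). Against aggregates the difference between lines in Matrigel was 1.95 for Sox17 (adjusted p 0.0106, and 0.0510 without replicate 2 of Matrigel 14B3) and 1.48 for Klf4 (adjusted p 0.0323, from 0.0173 to 0.143 without 1 array at a time). Both Klf4 arrays of Matrigel 9A1 were below both of its aggregate arrays, and both of Matrigel 14B3 were above both of its aggregate arrays. Groups of 2 arrays are too small to single out an array.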

How the results depend on the processing

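A set of 23 other settings gave 440 values for the 20 called results of members; 412 kept their direction and call, 26 kept their direction and lost the call, and 2 turned sign. Both turns were Sox17 in 9A1 alone, at -0.15 for Matrigel against basal culture and -0.18 for Matrigel against aggregates. Of the 20 results, 9 held under all settings that were run. The cause of the changes below was not tested.

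A separate replicate block in each line moved Klf5 in Matrigel against aggregates past the threshold (-0.26, adjusted p 0.0394) and the counts of all genes between lines from 745 to 1119 and for the differences between lines from 58 to 118, 85 to 165 and 52 to 96; it changed no other call of a member. In 9A1 alone 2 members in place of 5 were called in Matrigel against basal culture, with Gata6 at 0.34 (adjusted p 0.145) and Klf4 at 0.29 (adjusted p 0.380). Klf5 in aggregates lost its call in 9A1 alone (adjusted p 0.0868) and in 14B3 alone (adjusted p 0.307). In 14B3 alone Cdx2 at -0.57 (adjusted p 0.103) and Creb3l3 at -0.39 (adjusted p 0.190) were not called between Matrigel and aggregates. An additive fit gave Sox17 adjusted p-values of 0.0706 and 0.112 in Matrigel against basal culture and aggregates, and Klf4 0.229 between lines. In the difference between lines in the response to Matrigel 2 members were called with probe sets averaged per gene and with the dimmest probe set, and 0 among genes above the median level, which leave out Sox17. In the difference between lines in Matrigel against aggregates the count was 0 to 2 without 1 array, and 1 each among genes above the median level, with log2(value + 64) (Klf4 adjusted p 0.0588) and with array weights (Klf4 adjusted p 0.0854).

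Values not called above turned sign as follows. With quantile normalization Cdx1 was at -0.039 in aggregates and its difference between lines at 0.0087, and with arrays centred Gata6 was at -0.017 between lines. With the dimmest probe set Gata4 was at 0.064 in Matrigel against aggregates, Klf4 at 0.16 for the difference between lines in aggregates, Klf5 at -0.079 for that in Matrigel and Cdx2 at -0.088 for that in Matrigel against aggregates. With log2(value + 64) Gata4 was at 0.0033 for the difference between lines in aggregates. In 9A1 alone Cdx2 was at -0.20 and Klf5 at -0.0038 in Matrigel against basal culture. In 14B3 alone Gata4 was at 0.27, Gata6 at 0.17 and Klf4 at 0.68 (adjusted p 0.0319) in Matrigel against aggregates. The remaining turns came from leaving out 1 array. In Matrigel against basal culture Cdx1 ran from -0.22 to 0.0036, Cdx2 from -0.049 to 0.19 and Klf5 from -0.026 to 0.16. In Matrigel against aggregates Gata4 ran from -0.20 to 0.025 and Klf4 from -0.17 to 0.041. Between lines Cdx1 ran from -0.023 to 0.13, Creb3l3 from -0.0076 to 0.11 and Gata6 from -0.027 to 0.035. For the difference between lines in aggregates Cdx1 ran from -0.14 to 0.046, Cdx2 from -0.056 to 0.60 and Gata4 from -0.28 to 0.18. For the difference between lines in Matrigel Cdx1 ran from -0.21 to 0.24, Creb3l3 from -0.25 to 0.094 and Klf5 from -0.044 to 0.33. For the difference between lines in Matrigel against aggregates Cdx1 ran from -0.16 to 0.29 and Cdx2 from -0.066 to 0.59.

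Counts of all genes called also moved with the setting. Between lines 479 were called among genes above the median level, 478 with an additive fit and 494 at the lowest without 1 array. Over every probe set 9134, 5397 and 5093 were called in the 3 contrasts of culture, which tests more features. The differences between lines had 19, 37 and 20 above the median level, 52 and 30 (both for Matrigel) with log2(value + 64), 22 with array weights, and 23 to 98, 30 to 105 and 16 to 104 without 1 array. In 9A1 alone 2146 and 1869 were called in Matrigel against basal culture and aggregates, and in 14B3 alone 3813, 1791 and 1406 in the 3 contrasts.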
